A study of Mus musculus with 24 samples.

Results

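Solute carriers are the membrane proteins that move sugars, amino acids, metals, inorganic ions, nucleosides, vitamins and organic ions across the plasma membrane and the membranes of lysosomes, the endoplasmic reticulum and the Golgi. The genes described here were chosen by symbol. They are the rows of the counts table whose symbol begins with Slc, a number, the letter a and another number, without the mitochondrial Slc25 family and without Slc2a1, Slc16a3 and Slc7a11. Of 177 symbols of that form, 37 were Slc25 genes and 3 were the genes left out by name, so 137 of the 11590 genes of the table remained. Among the 137 are 4 genes that are not carriers themselves and bear the name of a carrier they lie near or bind, and they are kept apart below. The expression of the 137 genes was followed in bone marrow-derived macrophages, which are grown from mouse marrow with the growth factor M-CSF, over 6 groups of 4 replicate libraries.

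The cells came from male C57BL/6 mice that were wild type (WT) or deficient in GPR35 (KO), a G protein-coupled receptor that the series title names as a mediator of lysophosphatidic acid signalling. On day 7 of culture they were left untreated (Cont) or given lysophosphatidic acid (LPA) at 10 µM, a signalling lipid, or lipopolysaccharide (LPS) at 10 ng/mL, the bacterial cell wall component sensed by Toll-like receptor 4, for 4 h. The groups were thus WT Cont, WT LPA, WT LPS, KO Cont, KO LPA and KO LPS, all with the same growth factor and culture time. The labels do not give the KO allele or say whether the replicates came from separate animals, so the p-values measure only the spread between these libraries.

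Libraries held 15167683 to 46697165 counts. All 12 WT libraries were run on 2 lanes and all 12 KO libraries on 1, and every WT library was deeper than every KO library, so genotype and sequencing run cannot be told apart. Gpr35 itself was at 2.33, 2.53, 2.77 and 2.78 CPM (counts scaled to library size) in untreated WT cells and at 0.178, 0.0529, 0.0947 and 0.205 CPM in untreated KO cells, in the direction of the labels. All 8 macrophage markers were measured, and their summed level was 30921 to 47250 CPM in the 24 libraries. Of the other marker lists, 8 neutrophil and granulocyte precursor genes summed to 196 to 576 CPM and 6 stromal and endothelial genes to 13.9 to 208 CPM. The latter sum was 21.0 to 27.3 CPM in WT Cont, 35.8 to 42.6 CPM in WT LPA and 169.7 to 208 CPM in WT LPS. It mostly followed 1 gene, Kdr, at a mean of 12.97, 28.2 and 167.8 CPM in these groups. By the test described below, Cdh5, Kdr and Pdgfrb rose with LPS in WT. Pecam1 fell, from a mean of 6.752 to 1.049 CPM, and Col1a1 and Col1a2 did not pass. Whether stromal or endothelial content changed, and its part in the results below, was not tested. Each list of 6 dendritic cell and 6 erythroid markers had 0 genes in the table. Of 6 osteoclast markers 4 were measured, and they summed to 16.2 to 35.4 CPM. From the mast cell and basophil list only Hdc was measured, at 1.40 to 2.49 CPM in WT Cont and 44.0 to 49.5 CPM in WT LPS. From the T, NK and B cell list only Cd4 was measured, at 26.6 to 96.6 CPM.

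In macrophages, carriers serve several known tasks. Slc11a1 (NRAMP1) pumps divalent metals out of the phagosome, Slc40a1 (ferroportin) exports iron from the cell after red cells have been digested, and the cationic amino acid carriers Slc7a1 and Slc7a2 bring in arginine, the substrate of nitric oxide synthase and arginase. Slc15a3 and Slc15a4 carry peptides and histidine across the endolysosomal membrane and support the sensing of microbial products there. In bulk RNA, fewer cells of a type and less RNA per cell cannot be told apart.

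Per gene length, the taurine carrier Slc6a6 had the highest level in untreated WT cells, at 298 ± 7.43 reads per kilobase of gene length, scaled to library size (RPKM, mean ± SD, n = 4 libraries). It was followed by Slc11a1 at 187 ± 13.02 RPKM and by the lysosomal haem carrier Slc48a1 at 162 ± 11.1 RPKM. Slc37a2, a sugar phosphate carrier of the endoplasmic reticulum, was at 121 ± 7.49 RPKM, the neutral amino acid carrier Slc43a2 at 103 ± 9.95 RPKM and Slc15a3 at 102 ± 3.23 RPKM. Ferroportin Slc40a1 reached 87.1 ± 15.7 RPKM. The order of Slc43a2 and Slc15a3 is within their spread. With LPS the order changed: Slc15a3 stood at 674 ± 38.4 RPKM, the glucose carrier family member Slc2a6 at 465 ± 11.6 RPKM against 38.4 ± 2.47 RPKM without it, and Slc31a2, which moves copper out of endosomes, at 373 ± 4.45 RPKM, while Slc37a2 was at 13.5 ± 2.60 RPKM and Slc43a2 at 16.8 ± 3.29 RPKM. The carriers with the most transcript per length in the resting macrophage were therefore partly different from those in the cell given LPS.

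**Figure D1:**
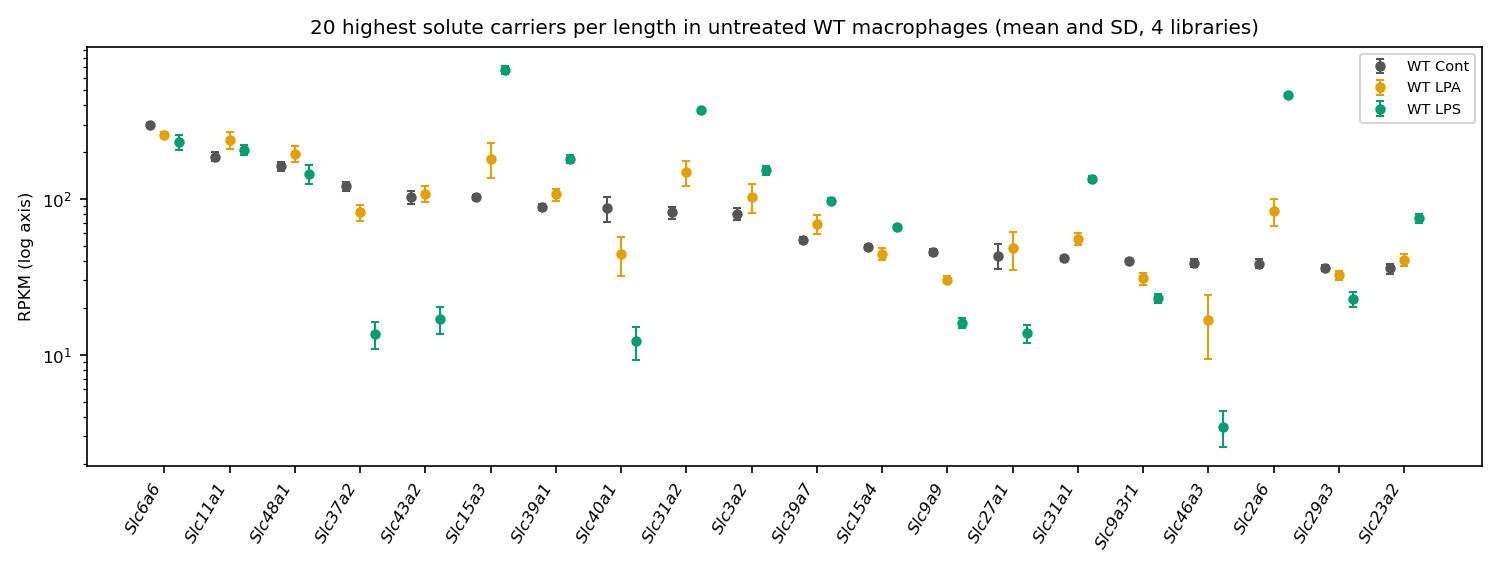
Mean and SD over 4 libraries of the 20 solute carrier genes with the highest RPKM in untreated WT macrophages (x axis, highest at the left; y axis, RPKM on a log scale), with the same genes under LPA and LPS. Slc37a2, Slc43a2, Slc40a1 and Slc46a3 lie far lower with LPS, and Slc15a3, Slc31a2 and Slc2a6 far higher.

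LPA changed many carriers in WT cells and hardly any in KO cells. In WT, 73 of the 137 genes passed the test (53.3%, against 44.6% of all genes), 42 with a rise (23.5% of all genes rose) and 31 with a fall (21.1% of all genes fell). With library totals in place of TMM factors 37 rose and 39 fell. The excess of rises thus rests on the scaling. Most changes were small: 10 genes moved at least 2-fold, 7 up and 3 down, and the median log2 change was -0.05 (all genes -0.01). In KO, 1 of 137 passed, against 2.62% of all genes (1.56% rose and 1.06% fell), and 25 had an unadjusted p below 0.05 (1472 of the 11590 genes). That gene, Slc28a2, fell in KO although it rose in WT. With replicate number as a block, which the same-numbered KO libraries share, 4 passed in KO: Slc28a2 fell and Slc6a8, Slc4a11 and Slc22a4 rose. A fit of the 2 KO groups alone called 3, a fall of Slc28a2 and rises of Slc16a6 and Slc43a2. Without KO LPA 2 there were 2 calls, without KO Cont 2, KO LPA 3 or KO LPA 4 there were 0, and without KO Cont 4 the 1 call was Slc4a11. Genes were called with edgeR's quasi-likelihood test at a Benjamini-Hochberg adjusted p below 0.05 over all 11590 genes, and each log2 change below is given with its standard error.

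The test of the difference between the genotypes, the LPA effect in KO minus that in WT, passed in 52 of the 137 genes (28.5% of all genes did), 25 with a higher and 27 with a lower effect in KO (12.7% and 15.8% of all genes). With library totals 25 were higher and 20 lower. Of the 73 genes called in WT, 70 had a smaller change in KO than in WT (5015 of the 5165 called among all genes), which choosing genes by their WT call favours. Of the same 73, 38 kept the sign of their change (52.1%, against 43.9% of all genes called in WT). The fits for the 2 genotypes share no library. Across the 137 genes the LPA changes in WT and KO had a Pearson correlation of 0.06, which is across genes and not across replicates.

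LPS changed 116 of the 137 genes in WT, 49 up and 67 down (84.7%, against 84.2% of all genes, of which 40.6% rose and 43.6% fell), and 64 of them moved at least 2-fold. In KO it changed 116 as well, again 49 up and 67 down (82.3% of all genes, with 39.3% up and 43% down). The 112 genes called in both genotypes all changed in the same direction, and the LPS changes correlated at 0.99 across the 137 genes (0.99 over all genes). The LPS libraries had lower composition factors (0.739 to 0.84, against 1.06 to 1.18 in the other libraries), so the balance of rises and falls rests on the scaling. With library totals in place of TMM factors the median LPS change of all genes in WT moved from -0.04 to -0.59 and the split in WT became 31 up and 94 down, and in KO 35 up and 90 down.

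**Figure D2:**
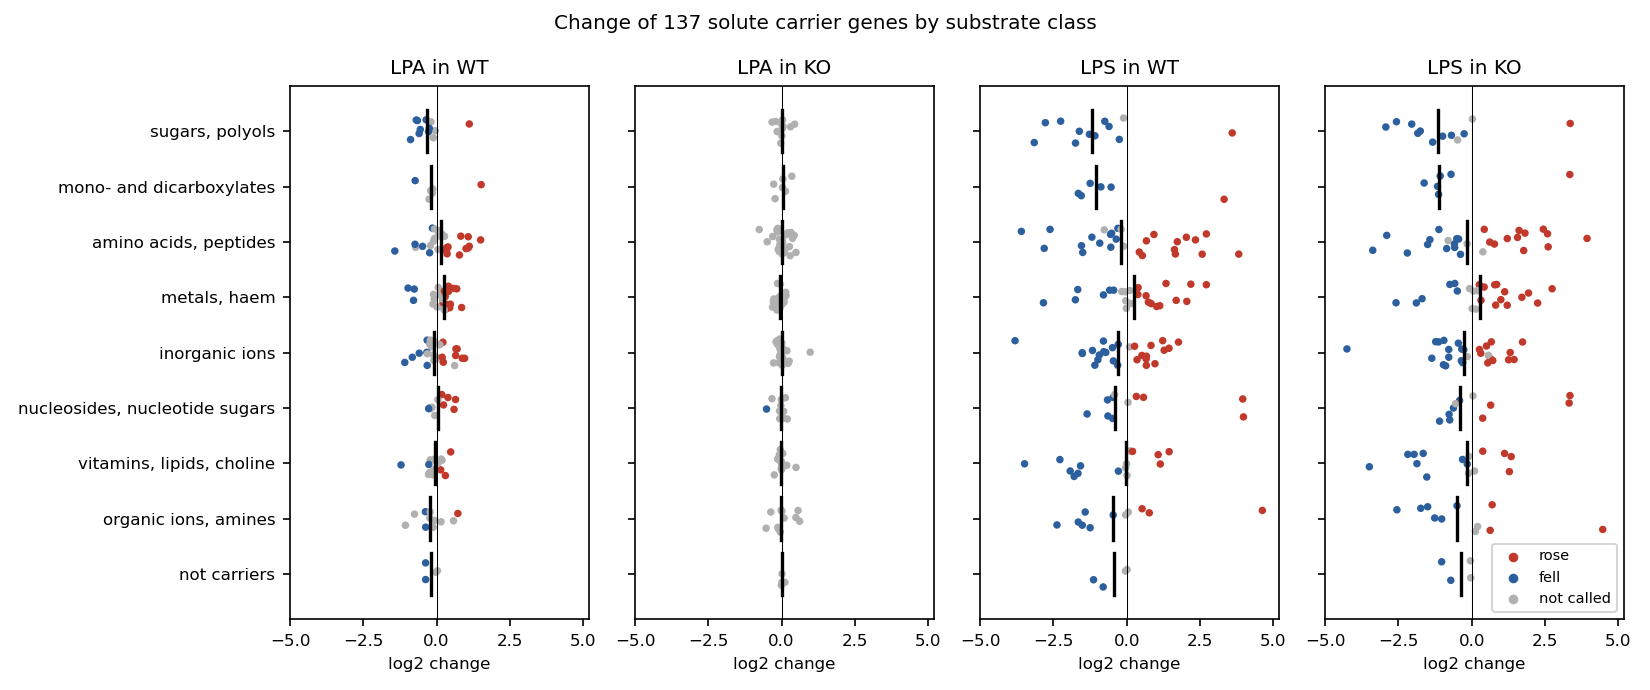
The log2 change (x axis) of each of the 137 genes for LPA and LPS in WT and KO, in rows by substrate class, with a black bar at the median of the class. Red points rose, blue points fell and grey points did not pass the test (edgeR adjusted p of 0.05). The LPA panel for KO has 1 coloured point, Slc28a2, while both LPS panels are similar.

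The promoters of 3 genes that rose with both LPA and LPS in WT are printed, since these genes had 3 of the largest differences in the LPA effect between the genotypes: the sugar carrier family member Slc2a6, the dicarboxylate carrier Slc13a3 and the arginine carrier Slc7a1. Each sequence runs 5′ to 3′ along the gene, from 250 bases before to 50 after the annotated start, in the RefSeq table of GRCm38.p6 (mm10). Capitals mark every match to a wide NF-kB form, G bases and C bases held apart by a fixed number of any bases, on either strand, and neighbouring matches run together. All 3 genes lie on the minus strand. The Slc2a6 promoter is chr2:27027949-27028248, that of Slc13a3 is chr2:165473148-165473447 and that of Slc7a1 is chr5:148399855-148400154.
Slc2a6: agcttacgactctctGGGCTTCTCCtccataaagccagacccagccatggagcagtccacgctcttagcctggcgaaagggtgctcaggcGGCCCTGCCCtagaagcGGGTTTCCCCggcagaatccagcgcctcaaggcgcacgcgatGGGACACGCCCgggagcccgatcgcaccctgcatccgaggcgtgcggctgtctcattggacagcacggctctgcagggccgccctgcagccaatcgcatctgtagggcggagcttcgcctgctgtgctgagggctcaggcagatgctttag
Slc13a3: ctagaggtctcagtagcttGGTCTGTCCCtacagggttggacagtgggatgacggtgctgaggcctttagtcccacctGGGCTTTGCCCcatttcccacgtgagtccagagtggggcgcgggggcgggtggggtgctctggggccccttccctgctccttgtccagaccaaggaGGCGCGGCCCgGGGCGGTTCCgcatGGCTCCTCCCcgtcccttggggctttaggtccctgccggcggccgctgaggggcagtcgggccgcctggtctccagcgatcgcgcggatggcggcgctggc
Slc7a1: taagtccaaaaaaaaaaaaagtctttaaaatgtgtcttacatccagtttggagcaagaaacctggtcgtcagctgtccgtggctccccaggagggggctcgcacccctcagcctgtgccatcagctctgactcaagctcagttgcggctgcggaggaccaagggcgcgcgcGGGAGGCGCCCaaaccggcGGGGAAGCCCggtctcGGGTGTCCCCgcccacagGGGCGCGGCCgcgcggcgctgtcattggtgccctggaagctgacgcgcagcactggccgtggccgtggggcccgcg
A form this wide is common: it was in 50.8% of 32851 mouse promoters of the same length and in 64.0% of the 136 promoters found for 101 of the 137 genes. Among the genes that rose with LPS in WT it was in 70.0% of 50 promoters, and among those that fell in 61.8% of 68. With LPA in WT the shares were 61.9% of 42 promoters for rises and 61.3% of 31 for falls. The AP-1 form TGANTCA was in 6.62% of the carriers' promoters (7.81% of all), and the Slc7a1 promoter above holds 1 copy, TGACTCA, at base -123 from the start. The hypoxia form ACGTG was in 28.7% (19.6% of all) and the metal response form TGCNCNC in 59.6% (51.0% of all). The amino acid response form TGATGNAAT was in 0 of the 136 and in 0.965% of all promoters, and the interferon form ISRE in 1.47% (3.44% of all). Both strands were searched, and a match describes letters in this window only.

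Among the sugar and polyol carriers far more genes fell than rose with either stimulus. Of 12 measured genes, 8 fell and 1 rose with LPA in WT (median log2 change -0.31), 0 passed in KO, and with LPS in WT 10 fell and 1 rose (median -1.18), the 1 that rose being Slc2a6 each time. Of all genes, to set beside this and the later classes, 23.5% rose and 21.1% fell with LPA in WT. In KO 2.62% passed with LPA. With LPS in WT 40.6% of all genes rose and 43.6% fell. The LPA effect was higher in KO for 12.7% of them and lower for 15.8%. Slc2a6 (GLUT6; chromosome 2, 27021363 to 27028000) is a lysosome-associated member of the glucose carrier family. It was at 83.4, 88.8, 77.3 and 78.3 CPM in WT Cont, at 194, 209, 130.4 and 177 CPM in WT LPA and at 1016, 976, 1015 and 969.5 CPM in WT LPS. In KO it was at 67.9, 76.1, 88.1 and 87.4 CPM untreated, 67.2, 55.3, 65.2 and 67.1 CPM with LPA and 818, 961, 769 and 732 CPM with LPS. The 3 WT groups did not overlap, whereas all 4 KO LPA libraries lay below all 4 KO Cont libraries. The LPA change was 1.12 ± 0.11 (edgeR adjusted p = 2.8e-07) in WT and -0.33 ± 0.12 (edgeR adjusted p = 0.17) in KO. The difference between these was -1.44 ± 0.16 (edgeR adjusted p = 7.0e-06).

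Slc37a2 (chromosome 9, 37229149 to 37255738) moved the opposite way to Slc2a6. By CPM it was above Slc2a6 in WT Cont and WT LPA and below it in WT LPS. Its levels were 576, 529.8, 496 and 537 CPM in WT Cont, 389, 302, 389 and 374 CPM in WT LPA and 46.1, 55.9, 65.95 and 72.4 CPM in WT LPS, so the 3 WT groups did not overlap. With LPA it changed by -0.56 ± 0.12 (edgeR adjusted p = 6.5e-04) in WT and 0.05 ± 0.12 (edgeR adjusted p = 0.93) in KO, with a called difference (0.60 ± 0.16, edgeR adjusted p = 0.0095). The intracellular sugar carrier Slc2a8 (-0.89 ± 0.11 with LPA, -2.77 ± 0.13 with LPS in WT), the proton-linked sucrose carrier family member Slc45a4 (-0.65 ± 0.09 and -2.25 ± 0.09) and the urate and fructose carrier family member Slc2a9 (-0.59 ± 0.10 and -1.62 ± 0.10) also fell with each. Their LPA effects differed between genotypes. The high-affinity glucose carrier Slc2a3 fell with LPS (-1.27 ± 0.14, edgeR adjusted p = 1.7e-08). Its LPA change in WT (-0.35 ± 0.13, edgeR adjusted p = 0.035) was not called when any one of WT LPA 1, 2 or 4 or WT Cont 2 or 3 was left out (highest edgeR adjusted p 0.099 for a control and 0.15 for WT LPA 1), and its difference between genotypes passed only with replicate number as a block (0.40, edgeR adjusted p = 0.033) or without WT LPA 3 (0.52, edgeR adjusted p = 0.024). The LPA call of Slc2a3 was also lost with counts thinned to the smallest library (-0.21, edgeR adjusted p = 0.29) and in a fit of the compared groups (-0.35, edgeR adjusted p = 0.068). Slc37a1, a close relative of Slc37a2, fell with LPA in WT (-0.69 ± 0.25, edgeR adjusted p = 0.028), a call lost without any one of WT LPA 1, 2 or 4 or WT Cont 3 or 4 (highest edgeR adjusted p 0.11). A fit of the compared groups lost the Slc37a1 call too (edgeR adjusted p = 0.096). Its difference between genotypes did not pass (0.70 ± 0.36, edgeR adjusted p = 0.15) but did with the replicate block (0.74, edgeR adjusted p = 0.0099) and without WT LPA 3 (1.08, edgeR adjusted p = 0.0061).

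Among 6 carriers of mono- and dicarboxylates, Slc13a3 rose and the others measured went down or did not pass. Slc13a3 (NaDC3; chromosome 2, 165405295 to 165473197), a sodium-coupled carrier of succinate and related acids that also takes up itaconate, was at 21.1, 13.1, 8.19 and 12.2 CPM in WT Cont, 49.98, 42.7, 19.1 and 45.2 CPM in WT LPA and 199, 116, 95.4 and 139 CPM in WT LPS. KO cells had 11.7, 20.3, 13.5 and 12.3 CPM untreated, 14.9, 19.8, 13.2 and 11.4 CPM with LPA and 139, 153, 150.2 and 141 CPM with LPS. The lowest WT LPA library lay within the WT Cont range, the other 3 lay above it, and every LPS library lay above every library of the other groups. The LPA change was 1.52 ± 0.29 (edgeR adjusted p = 4.1e-04) in WT and 0.04 ± 0.33 (edgeR adjusted p = 0.98) in KO. The difference was -1.48 ± 0.44 (edgeR adjusted p = 0.017). LPS changed it by 3.33 ± 0.30 in WT and 3.35 ± 0.32 in KO. The pyruvate and lactate carrier Slc16a7 (MCT2) fell with LPA in WT (-0.73 ± 0.09, edgeR adjusted p = 1.8e-06, from 29.9 ± 1.57 to 18.02 ± 0.952 CPM) and with LPS (-1.55 ± 0.09). Slc16a1 (MCT1), its close relative, was at 8.03 ± 0.367 CPM and did not pass with LPA (-0.13 ± 0.11, edgeR adjusted p = 0.37), while with LPS it fell (-0.53 ± 0.12, edgeR adjusted p = 2.2e-04). Slc16a6, a carrier of ketone bodies, was among the genes whose LPA effects had opposite signs in the genotypes (WT -0.26 ± 0.11, KO 0.35 ± 0.11), and the difference passed (0.60 ± 0.16, edgeR adjusted p = 0.0083). Neither change was called on its own, though that in WT was without WT LPA 3 (-0.35, edgeR adjusted p = 0.012). The KO change was called in the fit of the 2 KO groups alone (0.35, edgeR adjusted p = 0.040).

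**Figure D3:**
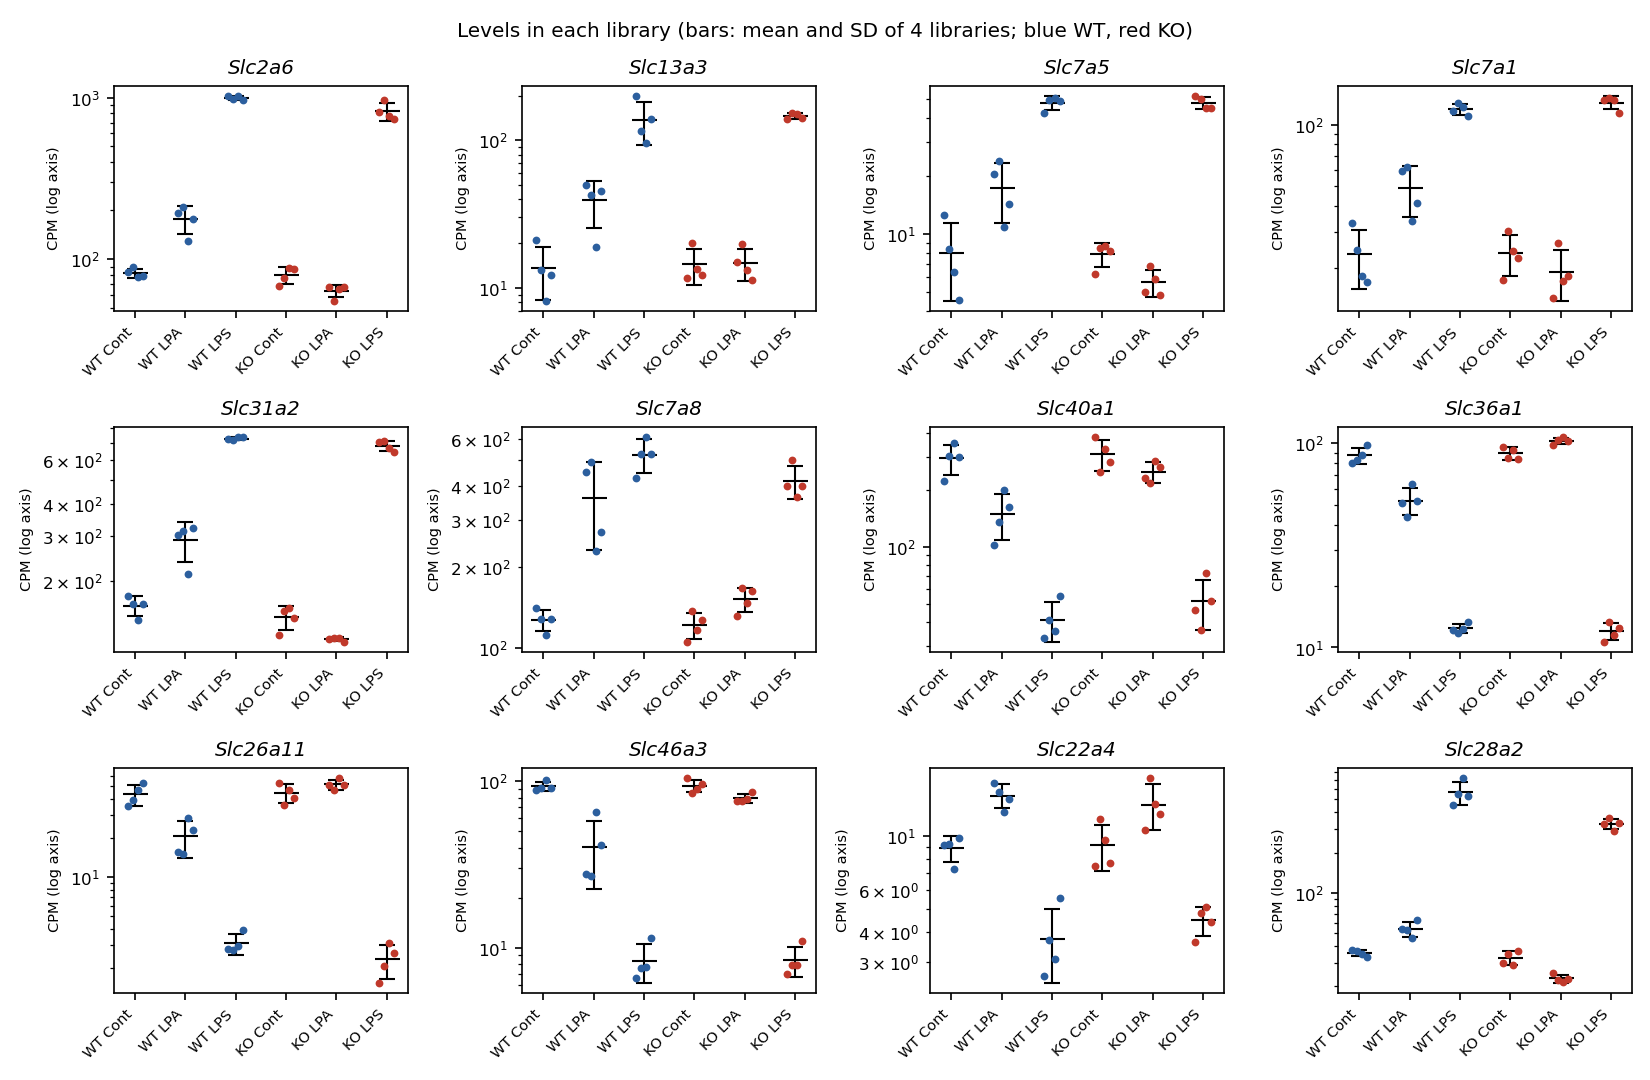
CPM in each of the 24 libraries (y axes on a log scale) of 12 carriers, with the mean and SD of the 4 libraries of a group as black bars, WT in blue and KO in red. Slc2a6, Slc13a3, Slc7a5, Slc7a1, Slc31a2 and Slc7a8 had higher means with LPA in WT, Slc40a1, Slc36a1, Slc26a11 and Slc46a3 had lower ones, and Slc22a4 had higher means with LPA in both genotypes.

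The amino acid and peptide carriers, 27 genes, split in direction. With LPA in WT 11 rose and 5 fell (23.5% and 21.1% of all genes did, class median 0.13) and in KO 0 passed. The difference between genotypes passed in 11, with 3 effects higher and 8 lower in KO. With LPS in WT 12 rose and 12 fell, which became 9 and 15 with library totals. Those that rose with both included Slc7a1, Slc7a5, Slc7a8 and Slc3a2, and those that fell with both included Slc36a1, Slc1a5 and Slc7a4.

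The cationic amino acid carrier Slc7a1 (CAT1; chromosome 5, 148327410 to 148399904) was at 33.3, 24.6, 18.2 and 17.1 CPM in WT Cont and at 59.4, 62.4, 33.8 and 41.4 CPM in WT LPA. All 4 LPA libraries exceeded all 4 controls. In KO the values were 17.4, 30.2, 24.3 and 22.5 CPM untreated and 14.3, 26.6, 17.3 and 18.3 CPM with LPA. With LPA it changed by 1.08 ± 0.21 (edgeR adjusted p = 5.0e-04) in WT and -0.30 ± 0.23 (edgeR adjusted p = 0.69) in KO, and the difference was -1.38 ± 0.32 (edgeR adjusted p = 0.0036). With LPS the gene reached 119 ± 7.48 CPM in WT and 128 ± 9.45 CPM in KO. Slc7a2 (CAT2), the inducible arginine carrier of activated macrophages, behaved otherwise: it stood at 6.65, 4.26, 4.18 and 5.49 CPM in WT Cont, 9.54, 5.06, 4.56 and 4.05 CPM in WT LPA and 96.7, 74.8, 70.9 and 49.3 CPM in WT LPS. The LPA change of Slc7a2 did not pass (0.19 ± 0.30, edgeR adjusted p = 0.64), and the LPS change was 3.82 ± 0.29 (edgeR adjusted p = 8.9e-11) in WT and 3.93 ± 0.32 in KO. Slc7a7, the light chain that exchanges cationic for neutral amino acids, rose with LPS by 1.66 ± 0.08.

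Slc7a5 (LAT1; chromosome 8, 121881146 to 121907686), which brings in leucine and other large neutral amino acids, was at 12.6, 8.36, 6.36 and 4.56 CPM in WT Cont and 20.4, 23.9, 10.8 and 14.3 CPM in WT LPA. It was at 6.19, 8.46, 8.71 and 8.12 CPM in KO Cont and 5.002, 6.79, 5.84 and 4.80 CPM in KO LPA. The lowest WT LPA library lay within the WT Cont range, and 3 of the 4 KO LPA libraries lay below every KO Cont library. The LPA change was 1.12 ± 0.23 (edgeR adjusted p = 7.5e-04) in WT and -0.49 ± 0.29 (edgeR adjusted p = 0.52) in KO, a difference of -1.61 ± 0.37 (edgeR adjusted p = 0.0035). Its relative Slc7a8 (LAT2; chromosome 14, 54722215 to 54781886) was at 141, 129, 112 and 128 CPM in WT Cont and 454, 492, 231 and 270.4 CPM in WT LPA, with all 4 LPA libraries above all 4 controls, and changed by 1.50 ± 0.18 (edgeR adjusted p = 3.4e-06) in WT and 0.32 ± 0.18 (edgeR adjusted p = 0.51) in KO. Slc3a2 (CD98 heavy chain), the shared partner of these light chains, rose from 237 ± 21.5 to 304 ± 65.3 CPM with LPA in WT (0.36 ± 0.12, edgeR adjusted p = 0.016). That call was lost without any one of WT LPA 1, WT LPA 2 or WT Cont 3 (highest edgeR adjusted p 0.083) and in a fit of the compared groups (edgeR adjusted p = 0.077). With LPS the change of Slc3a2 was 0.93 ± 0.12 (edgeR adjusted p = 1.4e-07). The serine and alanine carrier Slc1a4 (ASCT1) was low, at 1.68 ± 0.736 CPM in WT Cont and 3.57 ± 1.36 CPM in WT LPA, and had the largest difference of the LPA effect among the named genes (WT 1.08 ± 0.32, edgeR adjusted p = 0.010, KO -0.76 ± 0.41, difference -1.84 ± 0.52, edgeR adjusted p = 0.012). Without WT LPA 2 its change in WT was not called (0.86, edgeR adjusted p = 0.056).

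The aromatic amino acid carrier Slc16a10 (TAT1) rose with LPA in WT (0.78 ± 0.06; KO 0.04 ± 0.06) and with LPS (1.73 ± 0.06 in WT). The system A carrier of small neutral amino acids Slc38a2 (SNAT2) rose with LPA in WT (0.34 ± 0.10, edgeR adjusted p = 0.0062) and not in KO (-0.13 ± 0.10, edgeR adjusted p = 0.68), a called difference (-0.47 ± 0.14, edgeR adjusted p = 0.014). Its LPS change of 0.53 ± 0.10 in WT became -0.02 with library totals. The endolysosomal peptide carrier Slc15a3 (chromosome 19, 10842544 to 10857915) was at 245, 247, 229.7 and 239 CPM in WT Cont, 529, 496, 301 and 376 CPM in WT LPA and 1609.5, 1571, 1677 and 1462 CPM in WT LPS, and these 3 groups did not overlap. The LPA change of Slc15a3 was 0.83 ± 0.14 (edgeR adjusted p = 6.7e-05) in WT and 0.29 ± 0.14 (edgeR adjusted p = 0.37) in KO, and the difference (-0.54 ± 0.19, edgeR adjusted p = 0.040) was not called when any one of WT LPA 1 or 2, WT Cont 2, 3 or 4, KO Cont 1 or 4 or KO LPA 2, 3 or 4 was left out (highest edgeR adjusted p 0.11). Library totals (edgeR adjusted p = 0.061), counts thinned to the smallest library (0.059) and a fit of the compared groups (0.087) lost the Slc15a3 difference too. Slc15a4, its relative on the same membranes, changed by -0.14 ± 0.05 (edgeR adjusted p = 0.020) with LPA in WT, a call lost without any one of WT LPA 1, WT LPA 2 or WT Cont 3 (highest edgeR adjusted p 0.11), and by 0.43 ± 0.05 with LPS, which became -0.13 with library totals.

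Slc36a1 (PAT1; chromosome 11, 55204322 to 55236330), the lysosomal proton-coupled exporter of amino acids, fell. It was at 80.2, 82.9, 87.4 and 98.5 CPM in WT Cont, 51.2, 43.7, 62.9 and 51.98 CPM in WT LPA and 12.2, 11.8, 12.3 and 13.4 CPM in WT LPS, without overlap. In KO it was at 96.4, 84.7, 93.1 and 83.5 CPM untreated and at 98.5, 104, 107 and 102 CPM with LPA, all 4 of the latter above the former. The change with LPA was -0.73 ± 0.08 (edgeR adjusted p = 1.0e-06) in WT and 0.20 ± 0.08 (edgeR adjusted p = 0.27) in KO. The difference was 0.94 ± 0.12 (edgeR adjusted p = 1.6e-05). Slc43a2 (LAT4), a sodium-independent carrier of branched-chain amino acids, responded to LPS and showed no called change with LPA in WT: it was at 679.9, 694, 773 and 834 CPM in WT Cont, 681, 729, 880.1 and 841 CPM in WT LPA and 102, 112, 117 and 156 CPM in WT LPS (LPA 0.07 ± 0.12, edgeR adjusted p = 0.65; LPS -2.61 ± 0.13, edgeR adjusted p = 6.3e-15). In KO its LPA change was called in the fit of the 2 KO groups alone (0.27, edgeR adjusted p = 0.044). The glutamine carrier Slc1a5 (ASCT2) fell with LPS (-1.54 ± 0.10, edgeR adjusted p = 6.6e-13). Its LPA change in WT (-0.24 ± 0.09, edgeR adjusted p = 0.037) was not called without any one of WT Cont 1, 3 or 4 or WT LPA 2, 3 or 4 (highest edgeR adjusted p 0.12). Slc7a4, a low-level family member at 1.14 ± 0.187 CPM in WT Cont, changed by -1.42 ± 0.29 (edgeR adjusted p = 4.5e-04) with LPA in WT and by -3.59 ± 0.41 with LPS. The taurine carrier Slc6a6 did not pass with LPA in WT (-0.21 ± 0.10, edgeR adjusted p = 0.093), but passed with the replicate block (-0.21, edgeR adjusted p = 0.0061), with library totals (-0.26, edgeR adjusted p = 0.023) and in a fit of the compared groups (-0.21, edgeR adjusted p = 0.019). With LPS it fell (-0.36 ± 0.10, edgeR adjusted p = 0.0022). The creatine carrier Slc6a8 had no called change with LPA in either genotype (WT 0.27 ± 0.17, KO 0.43 ± 0.17, edgeR adjusted p = 0.25), though the KO change passed with the block (0.43, edgeR adjusted p = 0.049).

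With TMM factors, the carriers of iron, zinc, copper, manganese and haem rose with LPA in WT more often than they fell. Of 24 genes, 12 rose and 3 fell in WT (23.5% and 21.1% of all genes did, class median 0.24) and 0 passed in KO. The difference between genotypes passed with 1 effect higher and 8 lower in KO. With LPS in WT 12 rose and 6 fell, but with library totals 9 rose and 14 fell, so the balance in this class turned with the scaling. Both copper carriers, Slc31a1 (CTR1), which imports copper at the surface, and Slc31a2 (CTR2), rose. Slc31a2 was at 174, 162, 139.8 and 162 CPM in WT Cont, 303, 314, 213 and 324 CPM in WT LPA and 721, 718, 734 and 734 CPM in WT LPS. KO cells had 122, 152, 157 and 143 CPM untreated, 118, 119, 119 and 115 CPM with LPA and 702, 710.2, 669 and 644 CPM with LPS. The 3 WT groups did not overlap, and the 4 KO LPA libraries lay below every library of the other groups. The LPA change of Slc31a2 was 0.86 ± 0.10 (edgeR adjusted p = 1.0e-06) in WT and -0.28 ± 0.10 (edgeR adjusted p = 0.15) in KO, a difference of -1.14 ± 0.14 (edgeR adjusted p = 1.1e-05). Slc31a1 rose with LPA by 0.41 ± 0.07 (edgeR adjusted p = 1.8e-04) in WT (KO -0.14 ± 0.07) and with LPS by 1.69 ± 0.08. These genes are neighbours on chromosome 4, where both lie between bases 62280393 and 62391769.

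Ferroportin, Slc40a1 (chromosome 1, 45908070 to 45926532), had the strongest fall among the metal carriers. It was at 225, 302, 354 and 298 CPM in WT Cont, 102, 136, 200.3 and 162 CPM in WT LPA and 32.97, 40.8, 35.9 and 54.8 CPM in WT LPS. In KO it was at 381, 250.2, 329 and 280.4 CPM untreated, 233, 217, 286 and 263 CPM with LPA and 46.04, 36.4, 72.7 and 51.9 CPM with LPS. No WT LPA library reached the WT Cont range, while the KO LPA and KO Cont ranges overlapped. With LPA it changed by -0.97 ± 0.21 (edgeR adjusted p = 0.0011) in WT and -0.31 ± 0.21 (edgeR adjusted p = 0.62) in KO. The difference between these did not pass (0.66 ± 0.30, edgeR adjusted p = 0.098), but passed with the replicate block (0.69, edgeR adjusted p = 0.013) and without WT LPA 3 (0.83, edgeR adjusted p = 0.031). LPS changed it by -2.84 ± 0.23 (edgeR adjusted p = 2.0e-10) in WT. The iron importer of endosomes Slc11a2 (DMT1) went the other way, with 0.45 ± 0.07 (edgeR adjusted p = 5.2e-05) for LPA in WT, -0.64 ± 0.10 (edgeR adjusted p = 1.9e-04) for the difference and 1.34 ± 0.07 (edgeR adjusted p = 5.8e-14) for LPS in WT. Slc11a1 rose with LPA in WT (0.36 ± 0.08, edgeR adjusted p = 0.0015, 431 ± 30 to 551 ± 66.9 CPM). Its LPS change did not pass in WT (0.14 ± 0.08, edgeR adjusted p = 0.12), but did with DESeq2 (0.17, adjusted p = 0.047). With the replicate block it passed too (0.14, edgeR adjusted p = 0.017), but the replicate number was not taken to pair the LPS libraries in WT. It was called in KO (0.32 ± 0.08, edgeR adjusted p = 0.0013). With library totals both turned negative (-0.42 and -0.18). The haem carrier Slc48a1 (HRG1) did not pass with LPA in WT (0.26 ± 0.11, edgeR adjusted p = 0.067). That change passed with DESeq2 (0.27, adjusted p = 0.049) and in a fit of the compared groups (0.26, edgeR adjusted p = 0.045). It also passed with the block (0.26, edgeR adjusted p = 0.0034) and without WT LPA 3 (0.34, edgeR adjusted p = 0.017). With LPS in WT Slc48a1 did not pass (-0.17 ± 0.12, edgeR adjusted p = 0.18), although the change was -0.27 (edgeR adjusted p = 0.039) without WT LPS 4 and -0.72 (edgeR adjusted p = 1.7e-06) with library totals.

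Slc39a14 (ZIP14), which imports zinc and non-transferrin iron, was at 16.4, 15.8, 14.6 and 17.1 CPM in WT Cont, 26.01, 28.3, 18.9 and 22.8 CPM in WT LPA and 140.2, 109, 87 and 85.1 CPM in WT LPS. The LPS libraries stood far above both other groups. It rose with LPA in WT by 0.59 ± 0.15 (edgeR adjusted p = 0.0042) and with LPS by 2.72 ± 0.16 (edgeR adjusted p = 4.8e-13), and the difference in the LPA effect did not pass (-0.45 ± 0.23, edgeR adjusted p = 0.14). Slc39a8 (ZIP8), the closest relative of Slc39a14, fell with both (LPA -0.76 ± 0.14, edgeR adjusted p = 1.6e-04; LPS -1.75 ± 0.15), from 6.35 ± 0.421 CPM in WT Cont. The Golgi zinc carrier Slc39a13 (ZIP13) rose with LPA (0.69 ± 0.09) and LPS (2.05 ± 0.10) in WT. The zinc exporter Slc30a1 (ZnT1) rose with LPA in WT (0.41 ± 0.13, edgeR adjusted p = 0.014), a call lost without WT LPA 1 or WT Cont 3 (edgeR adjusted p 0.051 and 0.057). Its difference between genotypes (-0.56 ± 0.18, edgeR adjusted p = 0.029) was lost without any one of WT LPA 1, WT Cont 3, KO Cont 2 or KO LPA 1, 3 or 4 (highest edgeR adjusted p 0.076).

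Partners in metal handling that are not carriers of this naming were listed beside them. Of 13 measured iron partners, 3 rose and 2 fell with LPA in WT, where 23.5% of all genes rose and 21.1% fell. The ferritin heavy chain Fth1 (0.45 ± 0.10), the haem-degrading Hmox1 (0.49 ± 0.14) and the iron regulator Ireb2 (0.12 ± 0.04) rose. The ferritin receptor Ncoa4 (-0.39 ± 0.05) and the iron chaperone Pcbp2 (-0.24 ± 0.07) fell. Ncoa4 was the 1 called in KO (-0.20 ± 0.05). With LPS in WT Fth1 rose by 0.91 ± 0.10 and the ferrireductase Steap3 fell (-1.64 ± 0.17). Of 6 zinc and copper partners, the copper chaperone Atox1 rose (0.27 ± 0.05) and the copper chaperone Ccs (-0.24 ± 0.06) and the metallothionein Mt1 (-0.47 ± 0.07) fell with LPA in WT.

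Of 27 carriers of inorganic ions, 8 rose and 6 fell with LPA in WT (median -0.08), 0 passed in KO, and 5 effects were higher and 5 lower in KO. With LPS in WT 12 rose and 14 fell, and 5 and 17 with library totals. The sodium bicarbonate cotransporter Slc4a7 (NBCn1) rose with LPA in WT (0.88 ± 0.15, edgeR adjusted p = 1.6e-04, 75.2 ± 7.79 to 138 ± 24.5 CPM) and stood at -0.07 ± 0.16 in KO, a called difference (-0.94 ± 0.22, edgeR adjusted p = 0.0040). The phosphate importer Slc20a1 (PiT1) behaved likewise (WT 0.70 ± 0.09, edgeR adjusted p = 2.4e-06; KO -0.28 ± 0.09; difference -0.98 ± 0.12, edgeR adjusted p = 2.0e-05), and so did the potassium chloride cotransporter Slc12a4 (WT 0.65 ± 0.11; KO 0.06 ± 0.11).

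Slc26a11 (chromosome 11, 119355509 to 119381076), an anion exchanger of the sulphate carrier family, had the largest called fall with LPS among the 137 genes. It was at 35.04, 39.2, 47.1 and 53.01 CPM in WT Cont, 15.5, 15.04, 28.8 and 23.03 CPM in WT LPA and 2.77, 2.74, 2.95 and 3.94 CPM in WT LPS. KO cells had 53.5, 36.2, 47.03 and 40.9 CPM untreated, 50.9, 46.99, 57.8 and 51.4 CPM with LPA and 1.53, 2.05, 3.12 and 2.59 CPM with LPS. The 3 WT groups were apart, and KO LPA overlapped KO Cont. The change with LPA was -1.08 ± 0.18 (edgeR adjusted p = 7.6e-05) in WT and 0.22 ± 0.18 (edgeR adjusted p = 0.70) in KO, the difference 1.30 ± 0.25 (edgeR adjusted p = 1.0e-03), and the change with LPS -3.81 ± 0.22 in WT and -4.26 ± 0.26 in KO. The organelle sodium proton exchangers Slc9a7 (NHE7; LPA in WT -0.83 ± 0.10, edgeR adjusted p = 3.0e-06, KO 0.00 ± 0.10) and Slc9a9 (NHE9; WT -0.59 ± 0.06, edgeR adjusted p = 1.6e-07, KO -0.14 ± 0.06) fell with both stimuli in WT. Slc4a11, a proton carrier of the bicarbonate carrier family, had nearly equal LPA changes in the genotypes (WT 0.96 ± 0.30, edgeR adjusted p = 0.014; KO 0.97 ± 0.33, edgeR adjusted p = 0.15; difference 0.02 ± 0.45). At 2.23, 1.11, 1.18 and 3.57 CPM in KO Cont and 5.70, 1.81, 3.84 and 4.76 CPM in KO LPA it was near the lower end of the table, and the KO change passed with the block (1.01, edgeR adjusted p = 0.046) and without KO LPA 2 (1.21, edgeR adjusted p = 0.035) or KO Cont 4 (1.41, edgeR adjusted p = 0.033).

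Of 11 carriers of nucleosides, nucleobases and nucleotide sugars, 5 rose and 2 fell with LPA in WT (3 and 3 with library totals), and with LPS in WT 4 rose and 5 fell. Slc28a2 (CNT2; chromosome 2, 122426357 to 122461152), a sodium-coupled importer of adenosine and other purine nucleosides, was at 37.3, 36.9, 35.1 and 32.9 CPM in WT Cont, 54.1, 52.4, 46.2 and 62.2 CPM in WT LPA and 454, 545, 719 and 534 CPM in WT LPS. In KO it was at 30.1, 34.9, 28.98 and 36.9 CPM untreated, 25.2, 22.3, 21.5 and 22.6 CPM with LPA and 329.7, 359, 291 and 330.3 CPM with LPS. All 4 LPA libraries lay above the controls in WT and below them in KO, and every KO LPS library lay below every WT LPS library. The LPA change was 0.60 ± 0.11 (edgeR adjusted p = 2.5e-04) in WT and -0.51 ± 0.12 (edgeR adjusted p = 0.019) in KO. The KO call was lost without any one of KO Cont 2 or 4 or KO LPA 3 or 4 (highest edgeR adjusted p 0.087). The difference was -1.11 ± 0.16 (edgeR adjusted p = 9.9e-05). With LPS the level in KO was lower than in WT (-0.78 ± 0.11, edgeR adjusted p = 5.4e-04).

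The near-identical neighbour Slc28a2b (chromosome 2, 122484941 to 122528040), at 3.60 ± 0.452 CPM in WT Cont and 56.2 ± 10.5 CPM in WT LPS, had similar changes (LPA in WT 0.65 ± 0.13; LPS in WT 3.96 ± 0.13; KO against WT with LPS -0.82 ± 0.11). Reads shared by Slc28a2 and Slc28a2b depend on how they were counted, so the separate levels are uncertain. The lysosomal nucleoside carrier Slc29a3 (ENT3) did not pass with LPA in WT (-0.15 ± 0.09, edgeR adjusted p = 0.15; with the block -0.16, edgeR adjusted p = 0.022) and fell with LPS (-0.65 ± 0.09, edgeR adjusted p = 3.0e-07).

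Among 15 carriers of vitamins, lipids and choline, 3 rose and 2 fell with LPA in WT and 4 rose and 7 fell with LPS in WT. Slc46a3 (chromosome 5, 147875897 to 147894861), a lysosomal carrier related to the folate carrier, had one of the largest falls in both. It was at 89.3, 91.5, 102 and 91.4 CPM in WT Cont, 27.9, 26.9, 65.1 and 41.6 CPM in WT LPA and 6.62, 7.51, 7.70 and 11.5 CPM in WT LPS, and at 104, 85.5, 89.98 and 96.1 CPM in KO Cont and 76.5, 76.3, 77.8 and 86.1 CPM in KO LPA. The 3 WT groups did not overlap, and the LPA libraries of WT spread widely. The change with LPA was -1.21 ± 0.20 (edgeR adjusted p = 8.6e-05) in WT and -0.25 ± 0.20 (edgeR adjusted p = 0.70) in KO, with a difference of 0.96 ± 0.28 (edgeR adjusted p = 0.015). The folate carrier Slc19a1 (-1.93 ± 0.11) and the thiamine carrier Slc19a2 (-2.28 ± 0.21) fell with LPS in WT. Neither passed with LPA in WT (-0.21 ± 0.10, edgeR adjusted p = 0.077 for Slc19a1 and -0.27 ± 0.18, edgeR adjusted p = 0.22 for Slc19a2), and Slc19a2 passed with the block (-0.29, edgeR adjusted p = 0.012) and without WT LPA 3 (-0.51, edgeR adjusted p = 0.012), Slc19a1 without WT Cont 4 (-0.28, edgeR adjusted p = 0.031). The vitamin C carrier Slc23a2 (SVCT2) rose with LPS (1.07 ± 0.10, edgeR adjusted p = 1.2e-09). Its LPA change in WT did not pass (0.19 ± 0.10, edgeR adjusted p = 0.14) but did with the block (0.19, edgeR adjusted p = 0.030), as did its difference between genotypes (-0.33, edgeR adjusted p = 0.015, against -0.32 ± 0.14, edgeR adjusted p = 0.096 without it). Leaving out WT LPA 3 (-0.38, edgeR adjusted p = 0.045) or KO LPA 2 (-0.45, edgeR adjusted p = 0.010) also brought that difference past the threshold.

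Of 11 carriers of organic ions, amines and sialic acid, 1 rose and 2 fell with LPA in WT and 3 rose and 6 fell with LPS in WT. Slc22a4 (OCTN1), the ergothioneine carrier, moved in opposite directions with the 2 stimuli: it was at 9.19, 9.23, 7.32 and 9.80 CPM in WT Cont, 16.6, 15.3, 12.6 and 14.3 CPM in WT LPA and 2.63, 3.70, 3.10 and 5.53 CPM in WT LPS. KO cells had 7.48, 11.8, 9.61 and 7.71 CPM untreated and 10.5, 17.4, 13.6 and 12.4 CPM with LPA, a partly overlapping pair. With LPA it changed by 0.73 ± 0.17 (edgeR adjusted p = 0.0020) in WT and 0.56 ± 0.18 (edgeR adjusted p = 0.13) in KO (with the block 0.56, edgeR adjusted p = 0.011), and the difference did not pass (-0.17 ± 0.25, edgeR adjusted p = 0.66). The sialic acid exporter of lysosomes Slc17a5 fell with LPA (-0.37 ± 0.06, edgeR adjusted p = 9.0e-05) and LPS (-1.65 ± 0.07) in WT. The serotonin carrier Slc6a4 was at 0.0873, 0.0571, 0.0247 and 0.0752 CPM in WT Cont and 1.19, 1.48, 1.94 and 1.90 CPM in WT LPS. It was called with LPS (edgeR adjusted p = 8.4e-11), and no fold is given because the WT Cont libraries hold 1 to 4 counts of it each. The urea carrier Slc14a1 did not pass with LPA in WT (-1.06 ± 0.47, edgeR adjusted p = 0.073; with the block -1.20, edgeR adjusted p = 3.9e-04; without WT LPA 3 -1.85, edgeR adjusted p = 0.0018). Slc22a17, the lipocalin receptor, was at 0.810 ± 0.243 CPM in WT Cont. Its difference between genotypes (1.37 ± 0.49, edgeR adjusted p = 0.040) was lost without any one of 11 of the 16 libraries in that comparison (highest edgeR adjusted p 0.088). A fit of the compared groups lost it too (edgeR adjusted p = 0.074).

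Of the 4 genes that are not carriers, Slc9a3r1 (NHERF1), a scaffold that binds sodium proton exchangers, fell with LPA in WT (-0.37 ± 0.07, edgeR adjusted p = 1.2e-04) and not in KO (0.01 ± 0.07), and fell with LPS (-0.80 ± 0.07). Slc2a4rg-ps, a pseudogene, fell with both in WT, and Slc4a1ap and Slc7a6os passed with neither. Slc7a6os lies 1724 bases from Slc7a6.

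Opposite directions with LPA and LPS in WT were called for 5 genes, which were picked out after their values were seen. Besides Slc22a4 they were the sodium proton exchanger Slc9a5 (LPA 0.66 ± 0.15; LPS -0.93 ± 0.17), the nucleoside carrier Slc29a2 (0.39 ± 0.15; -0.46 ± 0.17), the vesicular amine carrier Slc18a1 (-0.38 ± 0.14; 0.77 ± 0.14) and Slc15a4, whose rise with LPS turned negative with library totals. The LPA calls of Slc29a2 and Slc18a1 were lost without single libraries, any of the 8 for Slc29a2 (edgeR adjusted p up to 0.10) and WT Cont 1 or 2 or WT LPA 1 or 2 for Slc18a1 (up to 0.15), and the LPS call of Slc29a2 was lost without WT LPS 3 (-0.34, edgeR adjusted p = 0.071). With counts thinned to the smallest library the LPA calls of Slc29a2 (0.51, edgeR adjusted p = 0.27), Slc18a1 (-0.19, edgeR adjusted p = 0.6) and Slc15a4 (-0.13, edgeR adjusted p = 0.085) were lost. The LPS call of Slc29a2 was lost then too (-0.22, edgeR adjusted p = 0.62). A fit of the compared groups lost the LPA calls of Slc18a1 (edgeR adjusted p = 0.11) and Slc15a4 (edgeR adjusted p = 0.098). With library totals that of Slc29a2 was lost (edgeR adjusted p = 0.089), and the LPS change of Slc18a1 was 0.22 (edgeR adjusted p = 0.16). These comparisons share the WT Cont libraries. The direct comparison of LPS with LPA in WT called 110 of the 137 genes (78.9% of all genes, 37.8% higher and 41.1% lower), 44 higher and 66 lower with LPS, or 25 and 94 with library totals. Slc7a2 (3.64 ± 0.29) and Slc28a2 (3.39 ± 0.12) were among the largest higher, and Slc26a11 (-2.72 ± 0.22), Slc43a2 (-2.68 ± 0.13) and Slc37a2 (-2.60 ± 0.12) among the largest lower.

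In a list of 14 chaperones and regulators of carriers, the amino acid response factor Atf4 (0.59 ± 0.12) and its target asparagine synthetase Asns (1.20 ± 0.25) rose with LPA in WT and did not pass in KO (-0.12 ± 0.12 and -0.26 ± 0.28), and their differences between genotypes passed (-0.71 ± 0.17, edgeR adjusted p = 0.0046 and -1.46 ± 0.38, edgeR adjusted p = 0.0081). The arrestin Arrdc3, which guides membrane proteins to degradation, fell (WT -1.26 ± 0.21; KO 0.44 ± 0.21; LPS in WT -4.60 ± 0.28). Bsg, the chaperone of the lactate carriers, did not pass with LPA (0.04 ± 0.04). In all 6 rose and 2 fell of the 14 with LPA in WT, where 23.5% of all genes rose and 21.1% fell. In KO 2 rose (1.56% of all genes did). They were the kinase Sgk1 (0.46, edgeR adjusted p = 0.0078) and the arrestin Arrdc4 (0.37, edgeR adjusted p = 0.042), both of which also rose in WT.

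Without a stimulus the genotypes were close. None of the 137 genes passed between KO Cont and WT Cont (0.00863% of all genes did), 2 had an unadjusted p below 0.05 (314 of all genes), DESeq2 called 0, and the log2 differences ran from -0.76 to 0.24, with 134 of 137 within 0.5 either way. With LPA 77 of the 137 differed (50.3% of all genes, 24.4% higher and 25.9% lower), 35 higher and 42 lower in KO, or 50 and 32 with library totals. With LPS 5 differed, against 2.85% of all genes (0.69% higher and 2.16% lower): Slc28a2 (-0.78 ± 0.11), Slc28a2b (-0.82 ± 0.11), Slc11a2 (-0.30 ± 0.07, edgeR adjusted p = 0.027) and the cation chloride cotransporter family member Slc12a9 (-0.51 ± 0.12, edgeR adjusted p = 0.026) were lower in KO, and Slc9a9 (0.39 ± 0.06, edgeR adjusted p = 0.0017) was higher. With library totals 6 were higher and 2 lower. The call of Slc11a2 was lost without any one of WT LPS 2, 3 or 4 or KO LPS 1 or 3 (highest edgeR adjusted p 0.11), and that of Slc12a9 without WT LPS 3 or KO LPS 1 or 3 (highest 0.13). The count was 3 without WT LPS 3, 3 without KO LPS 3 and 9 without WT LPS 1.

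The LPS effect itself was not called different between the genotypes for any of the 137 genes by edgeR (0% of all genes), while 11 had an unadjusted p below 0.05 (698 of all genes) and DESeq2 called 2, Slc28a2 and Slc9a9. The differences ran from -0.66 to 0.54 with a median standard error of 0.14, and 133 of 137 lay within 0.5 either way on the log2 scale. For Slc28a2 the difference was -0.66 ± 0.16 (edgeR adjusted p = 0.32), and for Slc9a9 0.38 ± 0.08 (edgeR adjusted p = 0.32). A missed threshold does not show that the genotypes respond alike.

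**Figure D4:**
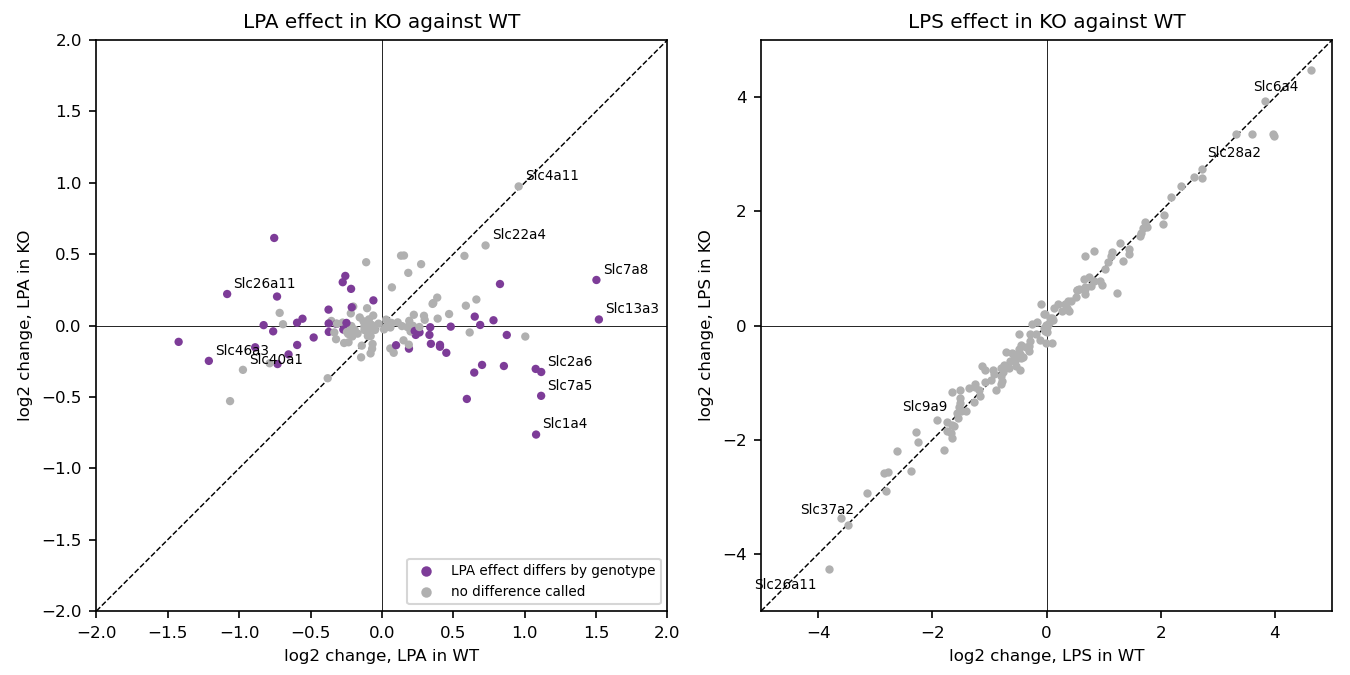
The log2 change in KO (y axis) against that in WT (x axis) for each of the 137 genes, with LPA at the left and LPS at the right; the dashed line marks equal change. Purple points are the 52 genes whose LPA effect differed between genotypes; with LPA most points lie near the horizontal axis while Slc4a11 and Slc22a4 lie near the dashed line, and with LPS the points follow it.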

How the data were processed

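Counts per gene were used as the authors deposited them. Libraries were stranded mRNA, per the labels' protocols, and the submitters' processing notes name STAR 2.5.2a and mm10. How reads were counted, with which strand setting and annotation, is not given in the sources used, so overlapping, antisense and near-identical genes are uncertain. The table held 11590 genes, each with at least 170 counts in total, and 9 without a symbol. All 137 carriers passed filterByExpr, which removed 0 genes. Chi-square per degree of freedom between replicates was 4.09 to 77.3 over 36 pairs, so none was a copy of another. The highest values, 77.3, 56.0 and 32.9, all set WT LPA 3 against another WT LPA library. Leaving out WT LPA 3 gave the most calls for LPA in WT (83) and for the LPA difference between genotypes (63).

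One edgeR 4.0.16 model (R 4.3.3, TMM factors, robust quasi-likelihood F test) with 6 group means fitted to 24 libraries left 18 residual degrees of freedom. Calls used a Benjamini-Hochberg adjusted p below 0.05 over all genes. Standard errors of log2 changes were taken from the F statistic. CPM used TMM-adjusted library sizes, and RPKM also the gene length in the deposited table. Fits were tested on simulated data. Gene positions and promoters came from RefSeq tables of GRCm38.p6 (promoters for 101 of the 137 genes).

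The members, substrate lists and tests were chosen with earlier results of these data known. Slc14a1, Slc49a4 and Slc28a2b were put in a class after the table was seen. Named genes were the 10 largest called rises and falls of LPA and LPS in WT among carriers with a mean of at least 1 CPM, fewer from the other comparisons, the highest and the most significant gene of each class, and 24 carriers tied to macrophages by general knowledge. A further 10 were added after their values were seen: Slc22a4, Slc16a10, Slc39a13, Slc6a8, Slc16a6, Slc9a5, Slc18a1, Slc29a2, Slc2a9 and Slc12a4; Slc7a7 and the partner genes named beside the metal and regulator lists were also picked then. One gene that the rule would have named is not reported here.

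Deviations from the group means of same-numbered libraries correlated at 0.21 or more for untreated and LPA libraries in WT and at 0.11 or more for every pair of treatments in KO, so the number was taken to pair libraries there, and not for LPS in WT (lowest 0.07) or across the genotypes (-0.58 to 0.18). The same-numbered WT values with LPS were all positive too, up to 0.299, so the line between 0.07 and 0.11 is a narrow one. Deviations from a group mean cancel over its 4 libraries, so positive same-numbered values bring negative ones elsewhere (KO Cont 4 with KO LPA 2, -0.58). Some libraries with different numbers were, however, as high as same-numbered ones. KO Cont 1 was at 0.351 with KO LPA 4 and 0.347 with KO LPA 1. It was at 0.304 with KO LPS 4 and 0.262 with KO LPS 1. The pairing is thus uncertain, and so are calls made only with the block. Alternatives were other size factors (RLE, library totals), DESeq2 1.42.0, no filter, at least 50 counts in 4 libraries, counts thinned to the smallest library, the compared groups alone, the replicate block and leaving out each library.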

Additional observations from a re-analysis of the deposited data

Results flagged for a closer look

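The LPA effect differed between the genotypes in a direct test for 35 of 61 named genes (edgeR interaction, adjusted p below 0.05, n = 4 libraries per group). It differed for 52 of all 137 genes (38%) and for 28.5% of all genes of the table. Some of the 61 were named because of this same call, which raises their share. The effect in KO minus that in WT, in log2 units, was negative for Slc1a4 -1.84, Slc7a5 -1.61, Slc13a3 -1.48, Slc2a6 -1.44, Slc7a1 -1.38, Slc7a8 -1.18, Slc31a2 -1.14, Slc28a2 -1.11, Slc20a1 -0.98, Slc28a2b -0.98, Slc4a7 -0.94, Slc16a10 -0.75, Slc39a13 -0.68, Slc11a2 -0.64, Slc12a4 -0.59, Slc30a1 -0.56, Slc15a3 -0.54, Slc31a1 -0.54 and Slc38a2 -0.47. It was positive for Slc22a17 1.37, Slc7a4 1.31, Slc26a11 1.30, Slc46a3 0.96, Slc36a1 0.94, Slc9a7 0.83, Slc2a8 0.74, Slc39a8 0.72, Slc2a9 0.61, Slc37a2 0.60, Slc16a6 0.60, Slc16a7 0.46, Slc9a9 0.46, Slc45a4 0.45, Slc9a3r1 0.39 and Slc17a5 0.33. The call of Slc7a4 was lost without WT LPA 2 (1.13, edgeR adjusted p = 0.054), and those of Slc15a3, Slc22a17 and Slc30a1 were lost without single libraries, as given with each gene. That of Slc16a7 was lost with counts thinned to the smallest library (0.38, edgeR adjusted p = 0.059). Genotype and sequencing run were confounded throughout, so their parts in these differences cannot be told apart.

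In 15 of 366 groups of 4 libraries, that is 61 genes in 6 groups, 1 library lay apart from the other 3 by Dixon's ratio, which chance gives in about 1 of 20 groups. KO LPA 2 was high for Slc6a6 (2051 CPM) and Slc23a2 (258 CPM) and low for Slc2a6 (55.3 CPM). WT LPA 2 was low for Slc37a2 (302 CPM) and Slc16a7 (16.6 CPM). WT LPS 1 was low for Slc9a9 (50.1 CPM) and Slc6a8 (36.5 CPM). KO Cont 1 was low for Slc39a14 (12.8 CPM) and high for Slc16a6 (41.1 CPM), KO Cont 2 high for Slc3a2 (265.0 CPM) and KO Cont 3 high for Slc39a13 (34.1 CPM). KO LPA 4 was high for Slc46a3 (86.1 CPM). Among the KO LPS libraries, replicate 3 was low for Slc28a2b (27.2 CPM) and replicate 4 stood apart for Slc22a17 (0.235 CPM) and Slc2a9 (8.32 CPM).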

How the results depend on the processing

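The counts of called carriers for LPA and LPS in WT, LPS in KO, the LPA difference between genotypes, KO against WT with LPA and LPS against LPA in WT stayed within 1.5 times their values under every setting run. The count for LPA in KO (1) became 3 in a fit of the compared groups and 4 with the replicate block, and that for the LPS difference (0) became 2 with DESeq2. KO against WT with LPS (5) gave 8 with library totals and 0 with the replicate block, where the numbers pair nothing. Leaving out 1 library at a time gave 60 to 83 calls for LPA in WT, 0 to 2 for LPA in KO, 38 to 63 for the LPA difference, 113 to 115 for LPS in WT, 114 to 118 for LPS in KO, 0 to 0 for the LPS difference, 0 to 0 for KO against WT untreated, 63 to 82 with LPA and 3 to 9 with LPS, and 107 to 111 for LPS against LPA in WT. The replicate block gave 86 calls for LPA in WT, 66 for the LPA difference and 118 for LPS in KO. Beside the block values given with the genes, it brought in Slc22a17 for LPA in WT (-0.76, edgeR adjusted p = 0.007), and Slc11a1 (-0.20, edgeR adjusted p = 0.039), Slc29a3 (0.22, edgeR adjusted p = 0.037) and Slc48a1 (-0.26, edgeR adjusted p = 0.035) for the LPA difference. It changed no other call of a named gene for LPA in either genotype, the LPA difference or LPS in KO. Of 10670 values of single genes under an alternative, 10422 kept their side of the threshold, 159 lost the call and 79 gained one. Values that changed sign while called in neither fit are among the 10422 and were not counted apart. The other 10 changed sign and were called in the main fit, the alternative or both, all 10 with library totals. For LPS in WT they were Slc11a1 (-0.42), Slc12a9 (-0.46), Slc15a4 (-0.13) and Slc38a2 (-0.02). For LPS in KO they were Slc11a1 (-0.18), Slc15a4 (-0.07) and Slc48a1 (-0.43), and for LPS against LPA in WT Slc12a9 (-0.09), Slc38a2 (-0.31) and Slc4a7 (-0.09). KO libraries held fewer counts, which limits low genes such as Slc4a11 and Slc22a17 most.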
